A study of Mus musculus with 10 samples.

Results

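The Hox cluster genes are the 39 protein-coding genes of the mouse genome (mm10 coordinates, RefSeq assembly GRCm38.p6) whose symbols are Hoxa, Hoxb, Hoxc or Hoxd followed by a number. They lie in 4 clusters, with 11 genes in HoxA on chromosome 6, 10 in HoxB on chromosome 11, 9 in HoxC on chromosome 15 and 9 in HoxD on chromosome 2, out of 21896 protein-coding genes in the annotation. H3K4me2, the dimethyl form of lysine 4 of histone H3 that marks active and poised promoters and enhancers, was taken from 8 deposited peak lists, and a peak was used when it overlapped a Hox gene or lay within 10 kb of one. This gave 116 peaks. Peaks of the 8 lists lying within 500 bp of each other were merged into regions, and 31 of the 30062 merged regions belonged to the Hox clusters.

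The lymphocytes were sorted by flow cytometry, with antibodies and the yellow fluorescent protein (YFP) of the reporter allele, from mice that were Gata3-YFP/YFP and had airway inflammation. Gata3 encodes a transcription factor of type 2 lymphocytes, and all groups carry this allele. There were 2 libraries each of cells labelled as naive T, of T helper 2 (Th2) cells and of innate lymphoid cells of group 2 (ILC2s). Replicate 1 came from bronchoalveolar lavage and replicate 2 from the mediastinal lymph node, and spleen and thymus each gave 1 library of CD4+ cells. The labels do not give the sort gates, the ages of the mice, how the inflammation was induced, or whether libraries came from separate animals, so any spread between the 2 libraries of a cell type holds the site as well as technical differences. The 2 immunoglobulin G (IgG) samples, to which the labels give the H3K4me2 antibody, were used only as the authors' background for peak finding.

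Hox genes encode homeodomain transcription factors that give cells their position along the body axis in the embryo, and their order within a cluster follows the order in which they are used from head to tail. They bind DNA with partners of the TALE homeodomain class such as Pbx and Meis proteins. Trithorax (MLL) complexes, which methylate H3K4, keep Hox genes active, and Polycomb complexes keep them silent. In blood, several Hox genes of the A, B and C clusters act in stem and progenitor cells and are shut down as cells mature, and Hoxa9 is a well known target of MLL.

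The start windows of 6 genes are shown because they pair, in the same cluster, a start under a peak in at least 2 libraries with a start under none. Each window runs from 250 bases before to 50 after an annotated start, 5′ to 3′ on the gene's strand, from the RefSeq promoter table of GRCm38.p6, with every CG dinucleotide in capitals. The Hoxa3 window (chr6:52213018-52213317, minus strand) lay under a peak in all 8 libraries, and the Hoxa5 window (chr6:52204538-52204837, minus strand) under none. In HoxB the Hoxb4 window (chr11:96318017-96318316, plus strand) was covered in all 8 and the Hoxb1 window (chr11:96365508-96365807, plus strand) in none. In HoxD the Hoxd9 window (chr2:74697513-74697812, plus strand) was covered in 2 libraries and the Hoxd10 window (chr2:74691641-74691940, plus strand) in none.
Hoxa3: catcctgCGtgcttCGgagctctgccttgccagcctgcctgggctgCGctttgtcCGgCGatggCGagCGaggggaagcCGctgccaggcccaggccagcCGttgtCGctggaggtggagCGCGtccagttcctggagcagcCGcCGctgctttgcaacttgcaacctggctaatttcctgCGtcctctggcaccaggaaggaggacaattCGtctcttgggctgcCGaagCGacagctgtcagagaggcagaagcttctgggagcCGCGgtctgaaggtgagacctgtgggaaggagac
Hoxa5: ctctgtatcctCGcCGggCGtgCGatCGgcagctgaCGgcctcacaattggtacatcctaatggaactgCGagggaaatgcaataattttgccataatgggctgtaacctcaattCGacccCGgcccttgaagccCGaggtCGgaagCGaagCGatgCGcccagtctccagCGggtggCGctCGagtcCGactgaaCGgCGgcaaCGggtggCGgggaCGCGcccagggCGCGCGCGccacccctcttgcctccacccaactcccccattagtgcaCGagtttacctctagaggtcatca
Hoxb4: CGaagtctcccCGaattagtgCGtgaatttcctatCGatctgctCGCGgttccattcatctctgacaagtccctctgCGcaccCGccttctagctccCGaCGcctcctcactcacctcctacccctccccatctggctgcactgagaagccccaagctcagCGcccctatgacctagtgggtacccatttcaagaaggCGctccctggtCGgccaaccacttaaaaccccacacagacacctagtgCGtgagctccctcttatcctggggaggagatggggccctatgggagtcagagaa
Hoxb1: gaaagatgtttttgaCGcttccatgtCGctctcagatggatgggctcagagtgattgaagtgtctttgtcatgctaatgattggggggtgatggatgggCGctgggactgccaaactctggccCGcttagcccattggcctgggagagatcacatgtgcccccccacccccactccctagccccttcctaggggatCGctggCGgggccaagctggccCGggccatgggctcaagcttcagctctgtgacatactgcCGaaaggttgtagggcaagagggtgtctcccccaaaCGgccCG
Hoxd9: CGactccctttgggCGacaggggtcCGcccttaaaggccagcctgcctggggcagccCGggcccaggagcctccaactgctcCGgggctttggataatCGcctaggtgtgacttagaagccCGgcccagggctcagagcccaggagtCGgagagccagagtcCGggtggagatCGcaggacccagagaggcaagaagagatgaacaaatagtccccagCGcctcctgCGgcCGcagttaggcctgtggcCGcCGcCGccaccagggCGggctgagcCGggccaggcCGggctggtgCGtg
Hoxd10: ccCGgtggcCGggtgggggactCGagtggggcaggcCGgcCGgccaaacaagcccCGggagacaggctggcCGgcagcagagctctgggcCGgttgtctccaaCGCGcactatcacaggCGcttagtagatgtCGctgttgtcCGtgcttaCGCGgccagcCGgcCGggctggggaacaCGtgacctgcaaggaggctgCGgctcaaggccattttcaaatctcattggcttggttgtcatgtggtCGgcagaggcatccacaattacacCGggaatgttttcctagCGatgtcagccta

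The number of CG dinucleotides did not separate these pairs. The Hoxa3 window held 20 and the Hoxa5 window 29, the Hoxb4 window 14 and the Hoxb1 window 10, and the Hoxd9 window 20 and the Hoxd10 window 22. CG reads the same on both strands, and it occurred in 94.6% of the 32851 promoter windows of all genes and in 100% of the Hox windows. The table matched 22 of the 39 Hox genes, with 24 windows, whose median was 14.5 CG against 7 for all promoter windows. The 9 Hox windows under a peak in at least 1 library had a median of 15 CG and the 15 under none a median of 13.

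The clusters also hold microRNA genes of the miR-10 and miR-196 families, shown here because 2 of them lay under peaks. The mature 5p sequences from RefSeq are written with the seed, bases 2 to 8, in capitals. Within each family the seed is shared, ACCCUGU for miR-10 and AGGUAGU for miR-196.
miR-10a-5p: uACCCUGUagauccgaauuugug
miR-10b-5p: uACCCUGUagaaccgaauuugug
miR-196a-5p: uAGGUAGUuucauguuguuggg
miR-196b-5p: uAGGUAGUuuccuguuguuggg
Mir10a (chr11:96317165-96317274), within the interval of Hoxb3 and just before Hoxb4, was overlapped wholly or partly by a peak in 5 libraries. These were the lavage naive T cells and both libraries of Th2 cells and of ILC2s, and in the other 3 the peak of the same region began beyond it. Mir196b (chr6:52230081-52230165), between Hoxa9 and Hoxa10, was overlapped only in lymph node naive T cells, by a peak of 86.1 tags, and in spleen CD4+ cells, by one of 55.5 tags. No peak overlapped Mir10b, Mir196a-1, Mir196a-2 or Mir615.

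Heights are the authors' normalized tag counts, the number of sequenced tags in a peak scaled to 10000000 tags per library. Because neighbouring peaks were stitched, a wide peak sums tags over more bases. Total tags per library ran from 11870820 to 24945548, and the 2 Th2 libraries were the shallowest. The peak finder was given a tag threshold of 39.9 to 40.4 normalized tags for peaks of 1000 bp, before stitching. The lists still hold 215 to 533 peaks each below that value, down to 34.5 tags, so it is not a strict limit. A region without a peak may still carry signal. The authors' immunoprecipitation efficiency, the share of tags that fall in peaks, came to 37.3% (lavage) and 53.7% (lymph node) in the naive T libraries, 28.7% and 29.3% in the Th2 libraries and 43.2% and 44.99% in the ILC2 libraries, with 44.2% for spleen and 53.3% for thymus. In bulk samples, fewer cells with a mark and less of the mark in each cell cannot be told apart.

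The cell labels were checked against marker genes. Peaks within 10 kb of 8 T cell genes, such as Cd3e and Lck, summed to between 11463 and 16609 tags in the 6 T cell libraries and to 1666 and 1583 in the ILC2s. Those of 8 ILC2 genes, such as Il1rl1 and Rora, summed to 25733 and 26967 tags in the ILC2s and to between 5012 and 8501 elsewhere. In the thymus, 5 thymocyte genes such as Rag1 summed to 12818 tags, against 245 to 1357 in the other libraries. The lavage library labelled naive T cells carried peaks at Il13 (131.7 tags), Il5 (79.8 tags) and Klrg1 (1194 tags), genes of activated and type 2 lymphocytes, at which the lymph node naive T library had none. Comparisons of heights and calls with naive T cells are therefore also given without the lavage library. Lists of other cell types were marked in part in every library. Of 4 B cell genes 1 or 2 had a peak, with Cd79a at 498.7 to 2293.8 tags and Ms4a1 at 0 throughout. Of 7 myeloid genes 2 to 4 had a peak, summing to 448.9 to 1057 tags, with Cd68 marked in every library and Lyz2, Csf1r and S100a8 in none. Of 6 airway epithelial genes 3 or 4 had a peak, summing to 203.9 to 794.8 tags, with Epcam, Cdh1 and Foxj1 marked in every library and Sftpb and Scgb1a1 in none. Their part in the Hox results was not tested.

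H3K4me2 at the Hox clusters was found in every library, but over few and mostly low regions. Of the 39 genes, 22 were overlapped by a peak in at least 1 library, and 3 in all 8, namely Hoxa3, Hoxb3 and Hoxb4. Another 11 lay within 10 kb of a peak without being overlapped: Hoxa2, Hoxa5, Hoxa9, Hoxa10, Hoxb13, Hoxc8, Hoxc10, Hoxd3, Hoxd10, Hoxd11 and Hoxd12. The remaining 6, Hoxb1, Hoxc11, Hoxc12, Hoxc13, Hoxd1 and Hoxd4, had no peak within 10 kb in any list. Of the 31 Hox regions, 4 had a peak in all 8 libraries, which is 12.9% against 36.7% of all 30062 regions, and 5 had a peak in 1 library, which is 16.1% against 17.1%.

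**Figure D1:**
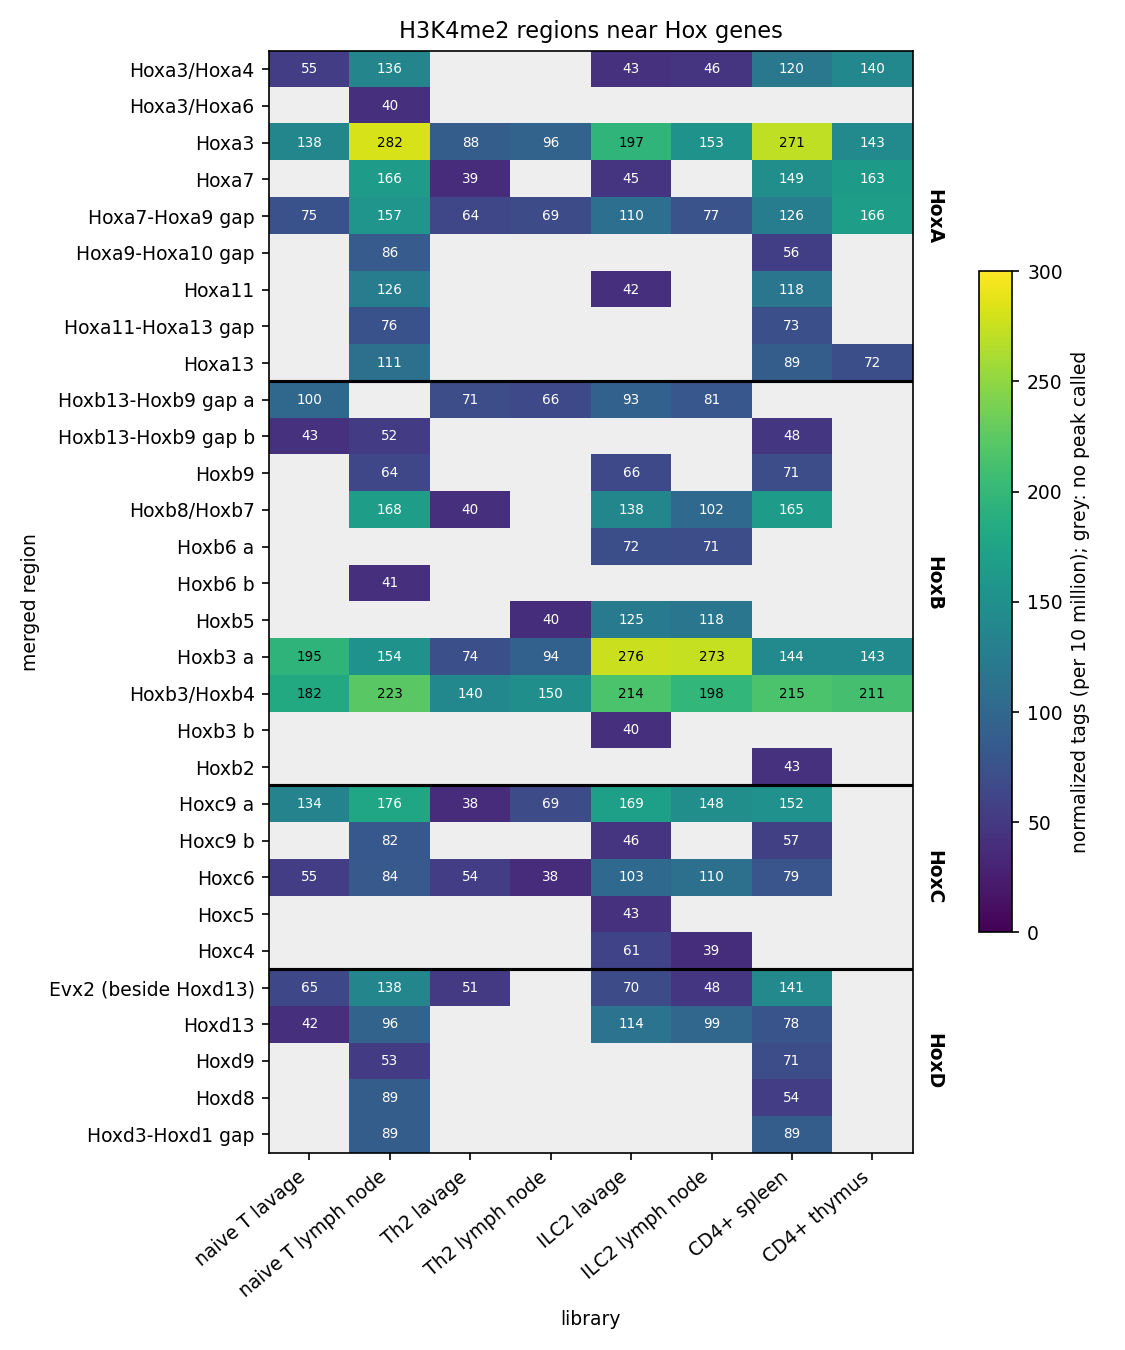
Height of the merged Hox regions described in the text (rows, in genome order within each cluster) in each of the 8 libraries (columns), in normalized tags per 10000000; grey cells had no peak. Regions at Hoxa3, Hoxb3 and Hoxb4 and between Hoxa7 and Hoxa9 were filled in all 8 columns, and lymph node naive T cells and spleen had 24 and 23 peaks within 10 kb of a Hox gene.

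**Figure D2:**
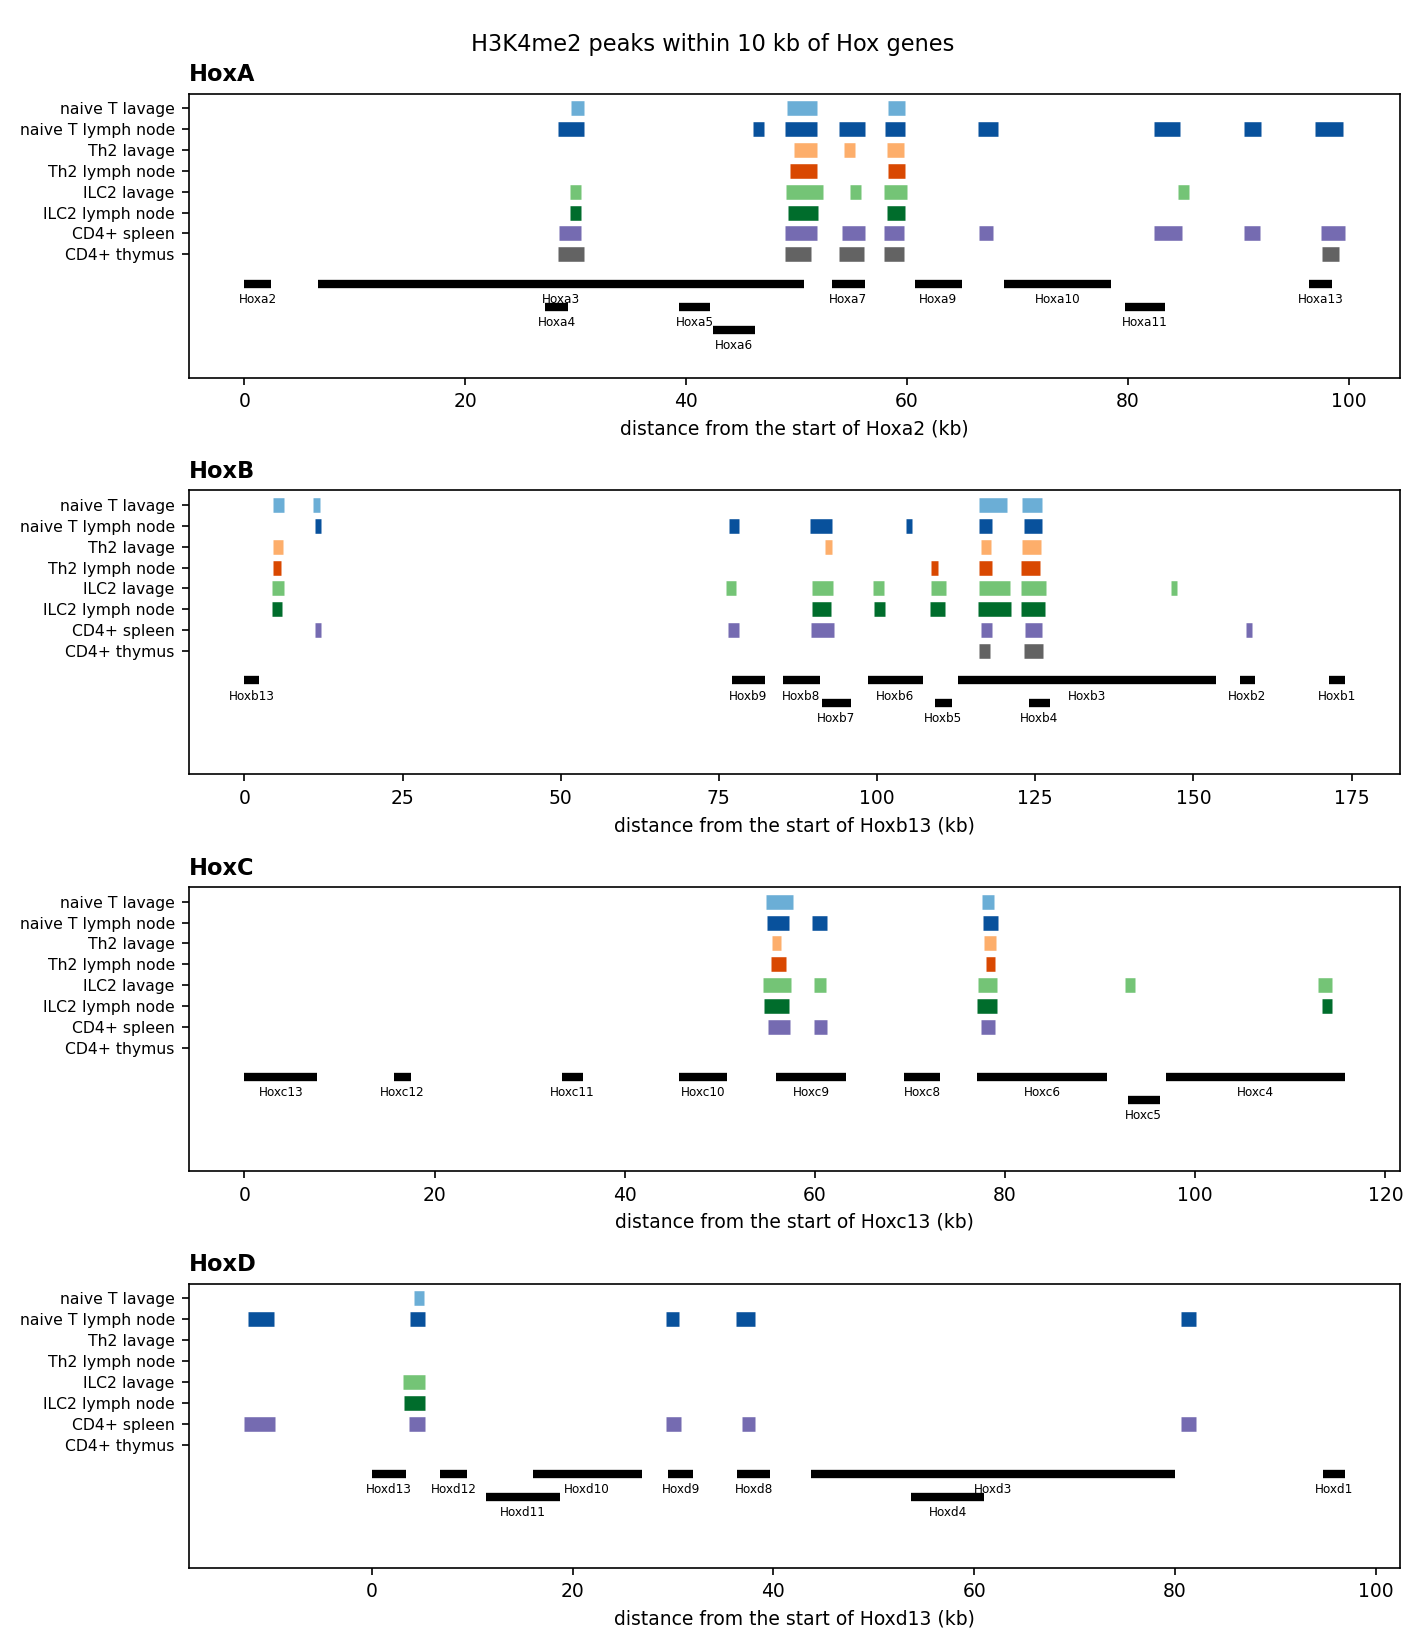
Position of the Hox peaks described in the text (coloured bars, 1 row per library) along each cluster, in kb from the lowest coordinate of the named gene; black bars are the genes. Posterior HoxA and most HoxD peaks lay in the rows of lymph node naive T cells and spleen, while both ILC2 rows carried peaks at Hoxb5 and Hoxb6.

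The libraries differed in how many Hox peaks they held. Lavage naive T cells had 10 and lymph node naive T cells 24, the Th2 libraries had 9 and 8, the ILC2 libraries 20 and 14 (lavage first in each case), spleen had 23 and thymus 8. These peaks covered from 13866 bp, in lymph node Th2 cells, to 48135 bp, in lymph node naive T cells. Tall peaks were rare: the highest Hox peak of a library ranged from 140.3 tags, in lavage Th2 cells, to 281.9 tags, in lymph node naive T cells. The median Hox peak stood at the 17.9th to 39.5th percentile of the heights in its own list, below the middle in every library. Start windows of Hox genes lay under a peak for 8.33% to 33.3% of the 24 Hox windows, against 31.96% to 40.2% of all windows, and the Hox share was the lower one in each library.

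The division between clusters differed as well. HoxA held 48.2% of the Hox tags in lymph node naive T cells, 45.5% in spleen and 69.8% in thymus, against 20.7% to 31.3% in the other 5 libraries. In those 5, HoxB held the largest part, between 50.2% and 56.2%. HoxC had 2 to 5 peaks in each of 7 libraries and none in thymus. HoxD had 5 peaks each in lymph node naive T cells and spleen, 1 each in lavage naive T cells and both ILC2 libraries, and none in the Th2 libraries or the thymus.

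In HoxA a region marked in all 8 libraries lay at the start of Hoxa3, a gene required for the thymus and other organs of the pharynx (chr6:52211353-52214813). Its heights were 137.5 and 281.9 tags in lavage and lymph node naive T cells, 87.9 and 96 in the Th2 libraries, 196.8 and 152.9 in the ILC2 libraries, 271.3 in spleen and 143.4 in thymus. Lymph node naive T cells and spleen were highest and both Th2 libraries lowest. The region between Hoxa7 and Hoxa9 (chr6:52220314-52222440) was also marked throughout, at 75.2 and 156.8 tags in naive T cells, 63.6 and 69.1 in the Th2 libraries, 109.8 and 77.1 in the ILC2 libraries, 125.9 in spleen and 166.5 in thymus. Here the thymus was highest.

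A region within Hoxa3 and at Hoxa4 (chr6:52190814-52193203) had 136.1, 119.8 and 140.3 tags in lymph node naive T cells, spleen and thymus, 54.8 in lavage naive T cells, and 43.3 and 46 in the ILC2 libraries. Hoxa4 itself was overlapped only in the first 3. Hoxa7, a gene of the trunk that is also active in blood progenitors, had 165.8, 148.7 and 163.4 tags in those 3 libraries, 38.6 in lavage Th2 cells and 45.3 in lavage ILC2s. At Hoxa6 a peak of 40.2 tags was called in lymph node naive T cells alone.

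At the posterior end of HoxA, peaks were found mainly in the T cells of lymphoid organs. Hoxa11, a gene of the forearm and the uterus, carried 125.9 tags in lymph node naive T cells, 117.5 in spleen and, beside the gene, 42.1 in lavage ILC2s. Hoxa13, a gene of the digits and the urogenital tract, carried 110.9 tags in lymph node naive T cells, 88.6 in spleen and 72.5 in thymus, and was the 1 Hox region (3.23%) marked in these 3 libraries only, against 5.36% of all regions. The gap between the 2 genes held 75.6 and 73.2 tags, and the one between Hoxa9 and Hoxa10, with Mir196b, 86.1 and 55.5, in lymph node naive T cells and spleen and in no other library. Neither Th2 library and neither the lavage naive T nor the lymph node ILC2 library had a peak from Hoxa9 to Hoxa13.

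In HoxB the region of Hoxb4, a gene that promotes self-renewal of blood stem cells, was the most constant of all (chr11:96317006-96320942, also within Hoxb3). It measured 181.8 and 223.4 tags in naive T cells, 140.3 and 149.9 in the Th2 libraries, 214.5 and 198.4 in the ILC2 libraries, 215.4 in spleen and 211.2 in thymus. The highest was 1.59 times the lowest, against a median of 2.45 times over the 11038 regions that had a peak in all 8 libraries. The neighbouring region within Hoxb3 (chr11:96310310-96315423) varied more, 3.75 times, with 195.2 and 154 tags in the naive T libraries, 73.6 and 93.5 in the Th2 libraries, 275.8 and 273.3 in the ILC2 libraries, 143.6 in spleen and 143.4 in thymus. Both ILC2 libraries stood above all 6 T cell libraries, an order whose share over all regions was not counted. The peak was also wide in ILC2s, 4902 and 5113 bp, and in lavage naive T cells, 4450 bp, against 1586 to 2061 bp in the other 5.

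Peaks at Hoxb5 and Hoxb6 were found mostly in ILC2s. Hoxb5, a gene expressed in the embryonic lung and in blood stem cells, had 125.1 tags in lavage ILC2s and 117.8 in lymph node ILC2s, and 39.6 in lymph node Th2 cells. Hoxb6, a gene of the lateral mesoderm, had 72.2 and 71 tags at chr11:96293731-96295515 in ILC2s and no peak there in any T cell library. This region and Hoxc4 were marked in both ILC2 libraries and in no other, 6.45% of the Hox regions against 8.38% of all regions. A second region of Hoxb6 had 41 tags in lymph node naive T cells alone. The region over Hoxb8 and Hoxb7 (chr11:96283766-96287564), of which Hoxb8 acts in immature myeloid cells, had 137.5 and 102.1 tags in ILC2s, 167.8 in lymph node naive T cells, 165 in spleen and 39.9 in lavage Th2 cells.

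The other HoxB peaks were lower. Hoxb9, a gene of the rib cage, carried 64.2, 65.7 and 70.9 tags in lymph node naive T cells, lavage ILC2s and spleen. Hoxb2, a gene of the hindbrain, had 42.9 tags in spleen alone, and a second region of Hoxb3 had 40.1 in lavage ILC2s alone. Between Hoxb13 and Hoxb9, a region 2125 bp past Hoxb13 (chr11:96198735-96200539) was marked in both ILC2 libraries (92.6 and 81 tags), both Th2 libraries (71.1 and 66.5) and lavage naive T cells (99.9), and in none of the other 3 T cell libraries. It was the only Hox region with this pattern (3.23%), chosen after the calls were seen, which 1.37% of all regions had. Another, chr11:96205224-96206485, was marked at 42.6 and 52 tags in the naive T libraries and 48 in spleen.

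HoxC was marked at few places. The region at Hoxc9, a gene that patterns thoracic motor neurons (chr15:102975665-102978801), measured 134.2 and 175.9 tags in naive T cells, 38 and 69.1 in the Th2 libraries, 168.8 and 148 in the ILC2 libraries and 151.5 in spleen, with no peak in thymus. Th2 cells were the lowest. Hoxc6, a gene of the thorax and mammary gland (chr15:102998170-103000336), measured 54.8 and 84.1 tags in naive T cells, 54.2 and 37.9 in the Th2 libraries, 103 and 110.4 in the ILC2 libraries and 78.8 in spleen, again with none in thymus. Both ILC2 libraries were above the 5 other libraries with a peak, an order whose share over all regions was not counted. These 2 regions, 6.45% of the Hox regions, had a peak in every library but thymus, as did 1.78% of all regions. This pattern too was chosen after the calls were seen.

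The remaining HoxC peaks were low. A second Hoxc9 region had 82.1 tags in lymph node naive T cells, 46.5 in lavage ILC2s and 57.3 in spleen. Hoxc4, the paralogue of Hoxb4, had 60.9 and 39.4 tags in ILC2s (chr15:103034033-103035493) and no peak in a T cell library. Hoxc5 had 42.9 tags in lavage ILC2s alone.

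In HoxD, 3 regions were marked only in lymph node naive T cells and spleen. Hoxd9 had 52.8 tags in lymph node naive T cells and 70.9 in spleen, Hoxd8 had 89 and 54.1, and the gap between Hoxd3 and Hoxd1 (chr2:74748797-74750330) had 89 in both. None of these 3 had a peak in another library. The region at the 3′ end of Hoxd13, the digit gene (chr2:74671364-74673514), was marked in 5 libraries, with 114.2 and 99.4 tags in ILC2s, where the peak reached into the gene, and 41.8, 95.9 and 78.3 in lavage naive T cells, lymph node naive T cells and spleen, where it lay beside it. It had no peak in Th2 cells or thymus.

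The HoxD counts depend on the distance limit. A region at Evx2, the homeobox gene next to Hoxd13, had 138.1 tags in lymph node naive T cells and 141.2 in spleen, where the peak came within 9696 and 9619 bp of Hoxd13. In lavage naive T cells, lavage Th2 cells and both ILC2 libraries it had 64.8, 51.1, 70.2 and 47.7 tags, but lay between 10064 and 10497 bp away and was not counted, although its height stands in the plot of heights by region. With a limit of 25 kb the libraries had 12 and 25 (naive T), 10 and 8 (Th2), 22 and 15 (ILC2), 23 (spleen) and 8 (thymus) Hox peaks.

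Lymph node naive T cells and spleen CD4+ cells shared a pattern, chosen after the calls were seen, so its share is only a description. In both of them and nowhere else, 5 of 31 Hox regions (16.1%) had a peak, against 3.34% of all regions: Hoxd9, Hoxd8, the Hoxd3 to Hoxd1 gap, and the Hoxa9 to Hoxa10 and Hoxa11 to Hoxa13 gaps. Their lists were made against different IgG backgrounds, thymus and spleen. Their estimated fragment lengths were 182 and 180 bp, as was that of lavage Th2 cells at 182 bp, against 88 to 116 bp in the other 5 libraries. The part of fragment length in this pattern was not tested.

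Differences between the airway cell types were counted as regions with a peak in both libraries of one type and in neither of the other. Between ILC2s and naive T cells, Hoxb6, Hoxb5 and Hoxc4 (3 of 31 Hox regions, 9.68%) were marked in ILC2s only, against 10.7% of all regions, and the second Hoxb13 to Hoxb9 region in naive T cells only, against 2.68%. Between ILC2s and Th2 cells, 5 Hox regions (16.1%) were marked in ILC2s only, against 18% of all regions, among them Hoxb6, Hoxc4, Hoxd13 and Hoxa3/Hoxa4. No Hox region was marked in Th2 cells only in this comparison, against 1.39% of all regions. Between Th2 and naive T cells, 3 regions (9.68%) were marked in naive T cells only, against 5.28%, namely the second Hoxb13 to Hoxb9 region, Hoxd13 and Hoxa3/Hoxa4, and 0 in Th2 cells only, against 1.01%. The ILC2 shares were thus close to those of all regions. With 1 library left out the rule asks less of every region, so each count stands beside the share of all regions under the same rule. Without the lavage naive T library, 9 Hox regions were marked in naive T cells and not in ILC2s (16.3% of all regions) and 15 in naive T and not in Th2 cells (25.5%), while 4 were marked in ILC2s only (13.5%) and 1 in Th2 cells only (3.29%). Regions marked in ILC2s and not in naive T cells came to 5 when lymph node naive T cells were left out (16.7%) and likewise to 5 when lymph node ILC2s were (13.1%). In the latter case, 10 were marked in ILC2s and not in Th2 cells (21.6%). Without the lavage Th2 library, 1 was marked in Th2 and not in naive T cells (2.11%).

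Heights could be compared for the 6 Hox regions with a peak in all 6 airway libraries, with limma on log2(tags + 1), centred on each library's median, over 11644 regions. None of the 6 passed an adjusted p of 0.05 in the 3 comparisons. Unadjusted p-values were under 0.05 for 2 in ILC2s against naive T cells, 1 in Th2 against naive T cells and 3 in ILC2s against Th2 cells. Of all 11644 regions, 2231, 2203 and 2532 had an unadjusted limma p under 0.05, in the same order, so such values were common. At the adjusted p of 0.05, 2.64% of all regions were higher and 1.63% lower in ILC2s than in naive T cells. The shares were 0.112% and 0.0258% for Th2 against naive T cells, and 2.1% and 1.28% for ILC2s against Th2 cells. The tall Hoxb3 region had a log2 difference of 1.28 (SE 0.28) between ILC2s and Th2 cells (limma adjusted p = 0.0792) and of 0.84 (SE 0.28) between ILC2s and naive T cells (limma adjusted p = 0.196). Without the lavage naive T library the second value was 1.23 and its limma adjusted p = 0.0147, with 1 naive T library left, assumed to vary like the other groups. That fit called 11.2% of all regions higher and 5.57% lower. The difference from Th2 cells had a limma adjusted p = 0.0119 without either naive T library, in fits that called 7.53% of all regions higher and 6.17% lower. Per kb of peak, centred in the same way, the 2 differences were -0.02 from Th2 cells and 0.16 from naive T cells.

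Hoxc9 had a log2 difference of 1.17 (SE 0.28, limma adjusted p = 0.0957) between ILC2s and Th2 cells and of -0.95 (SE 0.28, limma adjusted p = 0.206) between Th2 and naive T cells. For Hoxc6 the log2 difference was 0.82 (SE 0.21, limma adjusted p = 0.116) between ILC2s and naive T cells and 0.78 (SE 0.21, limma adjusted p = 0.12) between ILC2s and Th2 cells. Per kb of peak the Hoxc9 values were 0.18 and -0.03 and the Hoxc6 values 0.28 and 0.05. Without the lavage naive T library, Hoxc9 stood at -0.92 between Th2 and naive T cells (limma adjusted p = 0.127) and Hoxc6 at 0.74 between ILC2s and naive T cells (limma adjusted p = 0.125). The 2 Th2 libraries differed at Hoxc9, where Th2 against naive T cells came to -0.55 without the lavage and to -1.35 without the lymph node Th2 library. The Hoxa3, Hoxa7 to Hoxa9 and Hoxb4 regions differed by -0.48 to 0.48 in the 3 comparisons, with limma adjusted p-values from 0.329 to 0.997.

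Summed tags of each cluster were compared between the 2 ILC2 and the 6 T cell libraries. HoxB summed to 1023.5 and 843.6 tags in ILC2s, and to 519.5 and 702.4 in naive T cells, 324.9 and 349.5 in Th2 cells, 685.8 in spleen and 354.6 in thymus. The groups did not overlap, and the mean difference of log2(tags + 40) was 0.94. How many other loci part these groups in this way was not counted, so the gap is not shown to be particular to HoxB. The exact two-sided permutation p was 0.0357, the smallest that 28 splits can give, and 0.143 after adjustment over the 4 clusters, so it did not pass. HoxB peaks covered 20605 and 17410 bp in ILC2s against 4771 to 11896 bp in T cells, whereas tags per covered kb were 49.7 and 48.5 in ILC2s, within the 45.5 to 74.3 of the T cells. The groups were thus apart in covered bases and overlapped in tags per kb.

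The other clusters overlapped between ILC2s and T cells. HoxA summed to 324.2 and 477.4 tags in ILC2s and to between 165.1 and 1406.8 in T cells (difference -0.28, exact permutation adjusted p = 0.75). The sign of the HoxA difference turned to 0.19 among the 6 airway libraries and to 0.0055 without lymph node naive T cells. HoxC summed to 297.8 and 422.1 against 0 to 342.1 (difference 1.24, exact permutation adjusted p = 0.357), and HoxD to 99.4 and 114.2 against 0 to 464.8 (difference 0.50, exact permutation adjusted p = 0.75). Beside the ILC2 values stand those of other marker lists. Peaks near 5 genes of blood progenitors, among them Meis1 and Hlf, summed to 2220 and 2016 tags in ILC2s, with all 5 genes marked, and to 358 to 1149 in T cells, with 1 to 4 marked. Those near 5 fibroblast genes summed to 338 and 178 tags in ILC2s and to 73 to 141 in T cells, with 3 and 2 genes marked in ILC2s, 1 or 2 in T cells, and Col1a2 and Tcf21 at 0 throughout. The list of 5 eosinophil and mast cell genes summed to 407.7 and 606.6 tags in ILC2s, mostly at Cpa3 (327.5 and 515.5 tags), and to 57.3 to 405 in T cells, with Fcer1a, Prg2 and Siglecf at 0 throughout. The part of such cells in the HoxB difference was not tested.

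**Figure D3:**
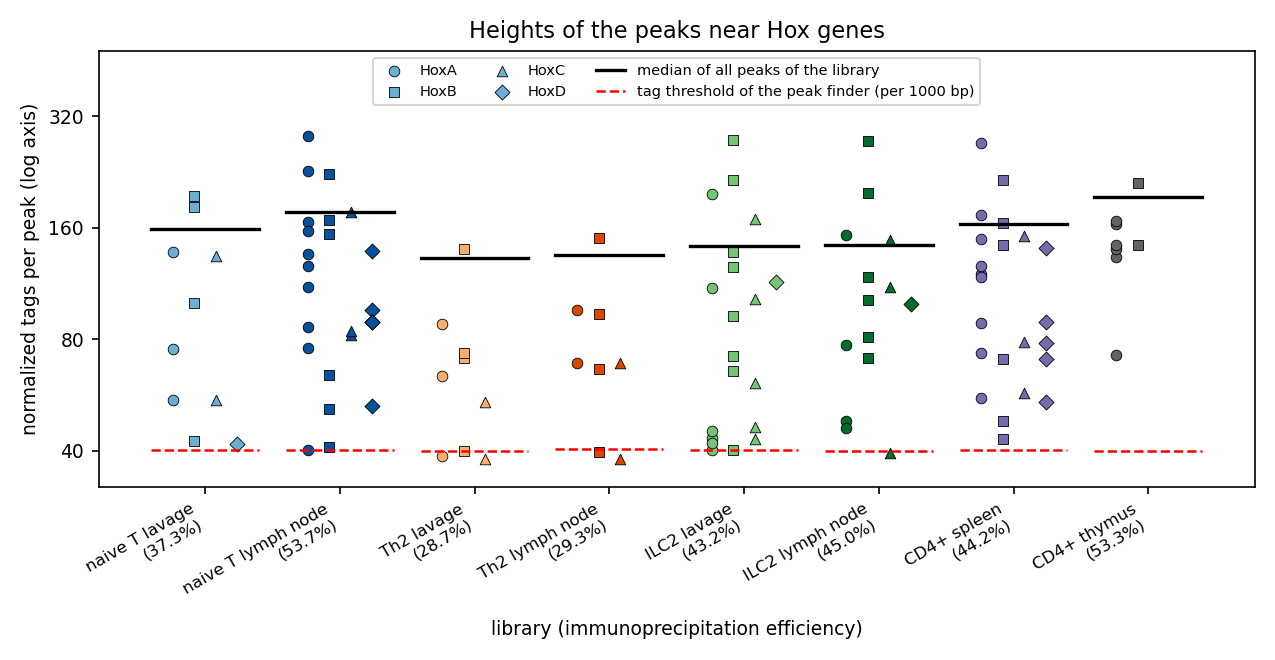
Height of each Hox peak by library, on a log axis, with a symbol for each cluster; black lines are the median of all peaks of the library, red dashed lines the tag threshold given to the peak finder, and percentages the immunoprecipitation efficiency. Most Hox peaks lay under the library's median, and thymus had only 1 Hox peak under 80 tags while lavage ILC2s and spleen had 10 each.

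Low peaks were set against the efficiency of each library, with 80 tags, about 2 times the threshold, as the limit of a low peak. Hox peaks under 80 tags numbered 5 and 6 in naive T cells, 7 and 5 in Th2 cells, 10 and 5 in ILC2s, 10 in spleen and 1 in thymus. Over the 8 libraries, Pearson's r of their number with efficiency was -0.21 and Spearman's rho -0.21, and without thymus the values were 0.21 and 0.06 (n = 7). Peaks under 80 tags over the whole of each list gave an r of 0.60 and a rho of 0.60, or 0.71 and 0.68 without thymus. Hox peaks of 80 tags or more numbered 5 and 18 in naive T cells, 2 and 3 in Th2 cells, 10 and 9 in ILC2s, 13 in spleen and 7 in thymus, and r was 0.78 and rho 0.79. In the Th2 libraries, with the lowest efficiency, low peaks made up 7 of 9 and 5 of 8 Hox peaks, against 26.8% and 26.6% of all their peaks. In the other libraries 21.2% to 26.1% of all peaks were under 80 tags.

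**Figure D4:**
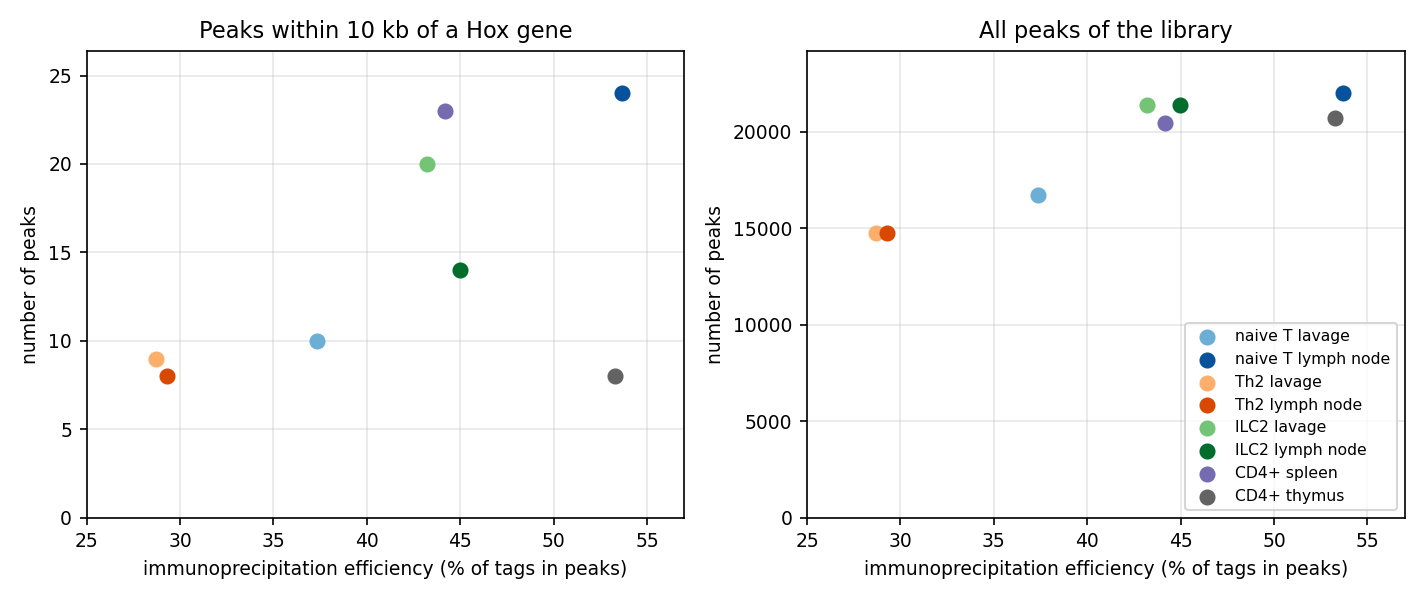
Number of Hox peaks (left) and of all peaks (right) against immunoprecipitation efficiency in percent, 1 point per library. The thymus, at 53.3%, had 8 Hox peaks, as few as lymph node Th2 cells at 29.3%, although it had 20723 peaks in all.

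The total number of Hox peaks followed efficiency loosely, and more closely with thymus left out. Over all 8, r was 0.52 and rho 0.47 for Hox peaks, against 0.91 and 0.86 for all peaks of a library. Without thymus, r was 0.87 and rho 0.86 (n = 7), the highest r with any 1 library left out (0.33 to 0.87). Thymus was singled out after its count was seen. Lavage ILC2s, spleen and lymph node ILC2s, at 43.2%, 44.2% and 44.99% efficiency, had 20, 23 and 14 Hox peaks. Without the 2 Th2 libraries, the farthest from the median efficiency, r for Hox peaks was 0.15 (n = 6) and for all peaks 0.71. Among the clusters, r over 8 libraries was 0.77 for HoxA, 0.14 for HoxB, -0.02 for HoxC and 0.50 for HoxD. Without thymus the values were 0.84, 0.69, 0.54 and 0.78. The points share cell types, sites and IgG backgrounds, so these values only describe the 8 libraries.

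Equal numbers of peaks removed most of the spread in Hox counts. When the tallest 14723 peaks of every library were kept, the number in the shortest list, the Hox peaks came to 6 and 12 in naive T cells, 9 and 8 in Th2 cells, 9 and 8 in ILC2s, 11 in spleen and 7 in thymus. The lowest height kept was then 110.5 tags in lymph node naive T cells and 34.5 in lymph node Th2 cells. HoxA still had 7, 6 and 5 peaks in lymph node naive T cells, spleen and thymus, against 1 to 3 in the other libraries. HoxB had 4 in both libraries of Th2 cells and of ILC2s, 3 in both naive T libraries and spleen, and 2 in thymus.

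The 24 Hox regions of lymph node naive T cells, the library with most, were then followed into each other list, a step chosen after the counts above were seen. No peak was called for 14 of them in lavage naive T cells (58.3%, against 30.6% of all regions of that library), 15 in lavage Th2 cells (62.5%, against 39.3%) and 18 in lymph node Th2 cells (75%, against 39.7%). In ILC2s 9 were without a peak in the lavage (37.5%, against 25.3%) and 13 in the lymph node (54.2%, against 25.4%). Spleen lacked 2 (8.33%, against 9.62%) and thymus 16 (66.7%, against 18.6%). The share without a peak was higher for Hox regions than for all regions in 6 of 7 lists, and the 2 shares lay farthest apart in thymus. Since the library was picked for its many Hox regions, a higher share is partly built in. From the 8 Hox regions of thymus, the shares went both ways. They were 0% in lymph node naive T cells and spleen (against 13.8% and 17.5%) and 12.5% and 25% in ILC2s (against 26.8% and 26.98%). In Th2 cells they were 37.5% and 50% (against 39.99% and 40.3%), and in lavage naive T cells 37.5% (against 32.4%).

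Regions were also compared within classes of height. Of the 6 Hox regions under 80 tags in lymph node naive T cells, 6 had no peak in thymus, against 53.4% of all such regions. Of the 18 between 80 and 300 tags, 10 had none (55.6%, against 12.4%). Several of these 10 stood near the lower edge of this wide class, from 82.1 to 95.9 tags, so height was matched only roughly. In Th2 cells 9 of the 18 had none in the lavage (50%, against 37.1%) and 12 in the lymph node (66.7%, against 37.8%). In ILC2s 4 had none in the lavage (22.2%, against 20.2%) and 7 in the lymph node (38.9%, against 20.4%). Lavage naive T cells lacked 9 (50%, against 24.9%) and spleen 0 (0%, against 0.914%). Starting from spleen, 15 of its 23 Hox regions had no peak in thymus (65.2%, against 15.1%). Lymph node naive T cells were picked for their many Hox regions, and thymus was singled out after its count was seen. Higher shares are thus partly built in here too. Between the 2 ILC2 libraries, of nearly equal efficiency, 6 of the 21 Hox regions of the lavage (the Evx2 region included) had no peak in the lymph node (28.6%, against 6.08%), and all 6 were under 80 tags. Thymus lacked every HoxC and HoxD peak while holding 6 in HoxA.

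For the 4 Hox regions marked in all 8 libraries, height rose with efficiency to differing degrees. Both measures count tags in peaks, so part of the correlation is built in. The Pearson correlation of log2 height with log2 efficiency was 0.95 at Hoxb4, 0.88 between Hoxa7 and Hoxa9, 0.78 at Hoxa3 and 0.59 at the neighbouring Hoxb3 region, against a median of 0.83 over the 11038 regions in all lists (n = 8 for each). At the Hoxb3 region both ILC2 libraries were highest, at 275.8 and 273.3 tags, and lymph node naive T cells, spleen and thymus stood at 154, 143.6 and 143.4.

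Most of the listed partner and regulator genes of the Hox family had a peak in each library. The share of all protein-coding genes with a peak within 10 kb was not counted. Counts of marked genes, here and for the lists below, are thus not shown to be particular to these lists. Of 9 TALE genes, between 6 and 9 had a peak within 10 kb in each library. Meis1, a partner of Hox proteins in blood stem cells, had 1 region at 391.7 and 258.9 tags and another at 125.1 and 94.6 tags in ILC2s, neither with a peak in naive T cells. The Meis2 region rose in ILC2s over naive T cells, with 342.3 and 290 tags against 131.2 and 123.9 (log2 difference 1.48, SE 0.22, limma adjusted p = 0.0292), and it was the only 1 of 6 TALE regions tested that passed in that comparison, in which 2.64% of all regions were higher and 1.63% lower. A Pknox1 region stood at 38.5 and 243.8 tags in the naive T libraries, without a peak in ILC2s or Th2 cells. A Meis3 region stood at 106.2 and 262.9 tags in the naive T libraries and at 107.8 and 56.1 in the ILC2 libraries, without a peak in Th2 cells.

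All 10 Trithorax genes and all 21 Polycomb genes listed had a peak in every library. Of 16 Trithorax regions tested, 1 fell in ILC2s against naive T cells, beside 1.63% of all regions, at Kmt2b, which encodes an H3K4 methyltransferase, with 429.3 and 447.6 tags against 802.5 and 1040 in naive T cells (log2 difference -0.88, SE 0.14, limma adjusted p = 0.0347). The same region was lower than in Th2 cells, by -0.94 (limma adjusted p = 0.0347). Of 28 Polycomb regions tested, 1 fell, beside the 1.63% of all regions, at Jarid2, a cofactor of Polycomb complex PRC2, with 144.3 and 138.4 tags in the ILC2 libraries against 252.9 and 314.4 in the naive T libraries (log2 difference -0.81, SE 0.14, limma adjusted p = 0.0431). Against Th2 cells that Jarid2 region fell by -1.24 (SE 0.14, limma adjusted p = 0.0199), in a comparison where 1.28% of all regions were lower. Per kb of peak this difference was -0.37 (limma adjusted p = 0.280). A second Jarid2 region, chr13:44806389-44813333, stood at 330.6 and 341.7 tags in the naive T libraries, 181.4 and 354.7 in Th2 cells and no peak in ILC2s. Of all 49 Polycomb regions, 4 were marked in naive T cells and not in ILC2s and 4 in ILC2s and not in naive T cells, beside 2.68% and 10.7% of all regions. The latter were a region of Pcgf1, a subunit of a PRC1 complex, at 183.6 and 196.2 tags in the ILC2 libraries, 2 of Ezh2, the methyltransferase of PRC2, at 81.8 and 68.3 and at 75.8 and 72.7, and 1 of Phc2 at 73.8 and 53.4. Median log2 differences between ILC2s and naive T cells were 0.03 over the Trithorax and -0.06 over the Polycomb regions tested, against -0.02 over all regions.

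Of 18 other homeobox genes of development, which have no textbook role in lymphocytes, between 3 and 13 had a peak within 10 kb, the fewest in lymph node Th2 cells and the most, 13 and 11, in ILC2s. Pax6, the eye gene, had 209.7 and 171.7 tags in ILC2s at its tallest region, no peak in naive T cells, and 64.8 in lavage Th2 cells, 60.1 in spleen and 42.5 in thymus. Msx1 had 135.5 and 40.7 tags in ILC2s and no peak in another library. In all, 5 of 20 regions of this list were marked in ILC2s and not in naive T cells, and 0 the other way, beside 10.7% and 2.68% of all regions.

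Among 8 homeobox genes with roles in lymphocytes, a Zeb2 region rose in ILC2s, with 752 and 1000.9 tags against 166.4 and 77.2 in naive T cells (log2 difference 3.10, SE 0.49, limma adjusted p = 0.0342). A Pou2f1 region did too, with 825.8 and 890.5 tags against 274.6 and 332.7 (log2 difference 1.68, SE 0.20, limma adjusted p = 0.0162). These were 2 of 11 regions tested, beside 2.64% of all regions. The Zeb2 region had 453.2 and 468.4 tags in the Th2 libraries. It passed neither between ILC2s and Th2 cells nor between Th2 and naive T cells. Without the lavage naive T library, ILC2s differed from naive T cells by 1.74 at Meis2, -0.84 at Kmt2b and -0.74 at Jarid2. The differences were then 3.88 at Zeb2 and 1.77 at Pou2f1. Per kb of peak, with no library left out, the 5 differences were 0.32, -0.31, -0.19, 0.59 and 0.35 in the same order. On that scale no region of the 5 passed (limma adjusted p from 0.0715 to 0.501). None of the 5 passed without either ILC2 library (limma adjusted p from 0.152 to 0.353), where no region of all 11644 did, with 1235 and 1122 under an unadjusted p of 0.05. Without either Th2 library only Pou2f1 passed (limma adjusted p = 0.0314). Without centring, Kmt2b and Jarid2 did not pass between ILC2s and naive T cells (limma adjusted p = 0.0631 and 0.0665). Neither did they between ILC2s and Th2 cells (limma adjusted p = 0.212 and 0.0781). Of the genes that flank the Hox clusters, 16 were matched and 12 to 15 had a peak in each library. No region of these flanking genes passed limma in any of the 3 comparisons, with 16 tested in each and 1, 4 and 4 of them under an unadjusted p of 0.05 (ILC2s against naive T, Th2 against naive T and ILC2s against Th2 cells). Of all 11644 regions, 2231, 2203 and 2532 were under that p in the same order. At Skap1, next to HoxB, 1 region stood at 67.7 and 113.8 tags in the naive T libraries and at 107 and 134.5 in the ILC2 libraries, without a peak in Th2 cells. In thymus 13 of the flanking genes, taken over all 4 clusters, had a peak, while HoxC and HoxD had none. The flanking genes without a peak there were Calcoco2, Ttll6 and Evx2, of which Evx2 lies next to HoxD.

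Over the 8 libraries, the summed tags of HoxA, the cluster with most peaks, were compared with those of peaks within 10 kb of 15036 other genes. The 5 most alike by Pearson correlation of log2(tags + 40) were Pigt (0.997), Mtfp1 (0.992), Arsb (0.991), Riox1 (0.990) and Axin2 (0.989), each highest in lymph node naive T cells, spleen or thymus. With 8 points and this many genes, such values describe the order of the libraries and nothing more.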

How the data were processed

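H3K4me2 was measured in 8 libraries by chromatin immunoprecipitation and Nextera sequencing. Bowtie, HOMER and the mm10 build are named in the submitters' processing notes, without versions. Each library had its own run of HOMER findPeaks, per the file headers, with a peak size of 1000 bp, a minimum distance of 2500 bp, stitching of neighbouring peaks, a false discovery rate of 0.001 and a required 4-fold excess over IgG (the thymus sample for 7 lists, the spleen sample for the spleen list). The deposited signal is the normalized tag count, scaled by the authors to 10000000 tags. The lists also hold the authors' findPeaks score, used only to rank peaks in an alternative, and the deposited fold ratio over IgG and Poisson p-value, which were not used for tests.

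Peaks were merged over the 8 lists where they lay within 500 bp. Genes came from a RefSeq table of GRCm38.p6, which has mm10 coordinates but no exons, so exons, introns and untranslated regions were not told apart. Heights, as log2(tags + 1) centred on the median of each library, were tested with limma 3.58.1 (R 4.3.3) over the 6 airway libraries in 1 fit, with Benjamini-Hochberg adjustment over all 11644 regions, since the values are not counts. Cluster sums used a pseudocount of 40 tags, about the peak finder's threshold, and an exact two-sided permutation over 28 splits. The limma script was tested on simulated data. Other steps used Python 3.11.15, pandas 2.3.3 and scipy 1.17.1. With 2 libraries per airway cell type and 1 each for spleen and thymus, p-values measure only the spread between these samples, which holds the site and may be technical.

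The text gives values for the Hox genes overlapped by a peak, names the others, and for partner genes gives at most 5 per list among those that passed limma or the rule of peaks in both libraries of one type and neither of the other. Some genes count in the totals and tests but are not reported here. Evx2 and the genes used to check the labels were named after their values were seen, as were the classes of height. The members, lists and tests were chosen with earlier results of these data known. Alternatives covered the distance to a gene, the peaks used, the merge distance, scaling, pseudocount, filter, replicate block and leaving out each library.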

Additional observations from a re-analysis of the deposited data

Results flagged for a closer look

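The number of Hox peaks changed between the sites in opposite directions in the 3 airway cell types. Lymph node minus lavage, it was 14 in naive T cells, -1 in Th2 cells and -6 in ILC2s. It is set apart because the single pair of libraries moved up in one cell type and down in the others. The difference was not tested, since each cell type has 1 library per site. Efficiency was higher in the lymph node than in the lavage in all 3 cell types, 53.7% against 37.3%, 29.3% against 28.7% and 44.99% against 43.2%, and its part in these differences was not tested. The summed tags of each of the 4 clusters were also checked, over the 6 T cell libraries, for a library far from the others. None stood out, and the ILC2 libraries were not part of this check.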

How the results depend on the processing

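Counts of Hox regions marked in one cell type only depended on the peaks used. With equal numbers of peaks by height, Th2 against naive T cells gave 1, naive T against Th2 cells 0, ILC2s against Th2 cells 1 and Th2 cells against ILC2s 1. With equal numbers by score, ILC2s gave 0 against naive T and 2 against Th2 cells. With peaks of at least 80 tags, ILC2s against naive T cells gave 1, naive T cells against ILC2s 0 and naive T against Th2 cells 1. Naive T cells against ILC2s gave 0 at 0 kb and 2 at 25 kb. Leaving out 1 library gave 3 to 5 (ILC2s against naive T cells), 1 to 9 (the reverse), 0 to 1 (Th2 against naive T cells), 3 to 15 (the reverse), 5 to 10 (ILC2s against Th2 cells) and 0 to 0 (the reverse). Without centring, which shifts the median of all regions by -0.20 (ILC2s against naive T cells), -0.61 (Th2 against naive T cells) and 0.42 (ILC2s against Th2 cells), 3 Hox regions passed limma between ILC2s and Th2 cells, all higher (737 higher and 107 lower of all 11644 regions), and 2 between Th2 and naive T cells, both lower (38 and 733). Leaving out 1 library gave 0 to 1 region passing for ILC2s against naive T and against Th2 cells, and 0 to 0 for Th2 against naive T cells. The Hoxb3 difference between ILC2s and Th2 cells reversed to -0.0157 per kb. The HoxA difference reversed to 0.19 in the 6 airway libraries and ranged from -0.56 to 0.0055 when 1 library was left out. The ranges were 0.80 to 1.07 for HoxB, 0.82 to 1.47 for HoxC and 0.22 to 0.95 for HoxD, and 0.33 to 0.87 for the correlation of Hox peaks with efficiency. The cause of these changes was not tested.

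Same-numbered libraries share a site, and their deviations correlated at 0.107, -0.0122 and 0.259, so they were not treated as pairs. With the replicate block, 0 Hox regions passed in each of the 3 comparisons, as without it, and among the named partner and regulator genes the adjusted p between ILC2s and naive T cells was 0.066 at Kmt2b and 0.0657 at Jarid2. These alternatives for partner and regulator genes were chosen after seeing the data. Asking for 200 bp of overlap could change nothing, since every peak lies wholly in its region.

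The Th2 libraries had the fewest tags, 11870820 and 16041895, and the lowest efficiency, and the part of either in their missing peaks was not tested.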
